A study of Mus musculus with 2 samples.

Results

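Glycolysis, the pentose phosphate branch and the transport of glucose and lactate were read from 36 mouse genes in hearts taken 3 days after myocardial infarction or sham surgery. The genes were taken from a named list of enzymes and transporters, and each was represented by the probe sets of the array whose annotation gives that gene symbol alone. A probe set of this kind was found for 32 of the 36 genes, and 30 were bright enough on at least 1 array to be compared, out of 11962 genes compared among 18194 genes with such a probe set. Male C57BL/6J mice, 10 weeks old, had the left anterior descending artery tied off permanently (infarct) or underwent the same operation without that tie (sham). Total RNA of heart tissue was measured, and each group was a single mixture of material from 3 mice, hybridised to 1 Affymetrix GeneChip expression array for mouse. There was thus no replicate in either group, no test between groups was possible, and every difference below compares these 2 pools.

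Glucose enters the cardiomyocyte through facilitative transporters, is phosphorylated by hexokinase and is split and oxidised in the cytosol to pyruvate, which is either imported by mitochondria or reduced to lactate. Most steps have several isoenzymes encoded by separate genes. Adult striated muscle uses its own set, with Slc2a4, Hk2, Pfkm, Pgam2 and Eno3 among them, whereas proliferating, inflammatory and stromal cells mostly use the widely expressed forms. The pentose phosphate branch draws glucose 6-phosphate away to make NADPH and ribose phosphate.

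Values are on a log2 scale, so that a difference of 1 (infarct minus sham) is a 2-fold difference. The 45101 probe sets spanned 2.95 to 14.9, with a median of 6.36 on the sham array and 6.35 on the infarct array, and a probe set was called bright where it reached the median of at least 1 array. A gene was given by its brightest probe set. As a measure of how far probe sets of a single gene scatter within these arrays, the pooled SD of the difference between bright probe sets was 0.23 over 5190 genes. This SD covers neither the animals nor the arrays. Of all 11962 genes compared, 6331 had a difference beyond it, and of the 30 genes compared here 21 did. A difference beyond this SD is therefore common on these arrays. The direction of a small difference also depends on how the arrays are set against each other: centring on housekeeping genes moved every difference by -0.35, and centring on the hybridisation controls moved every difference by 0.32.

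The forms classed as muscle were lower and the forms classed as ubiquitous higher in infarcted hearts. Of the 30 genes compared, 4 were higher by 2-fold or more after infarction (Slc16a3, Pgam1, Pfkp and Slc2a1), against 3.73% of all genes compared, and 0 were lower by that much, against 1.26% of all genes compared. The difference was above 0 for 19 genes and below 0 for 11, with a median of 0.18 where the median of all genes compared was 0. All 8 muscle forms (Slc2a4, Hk2, Pfkm, Pfkfb2, Fbp2, Pgam2, Eno3 and Ldhb) lay below 0, from -0.89 to -0.30 with a median of -0.59. All 6 ubiquitous forms measured (Slc2a1, Hk1, Pfkl, Pfkfb3, Pgam1 and Ldha) lay above 0, from 0.15 to 1.22 with a median of 0.40. The 5 forms known mainly from tissues other than the heart (Slc2a3, Hk3, Pfkp, Pfkfb4 and Slc16a3) lay between 0.21 and 1.41. Of these, Slc2a3 was bright on the infarct array alone and so could enter only with a higher value there. The 11 genes given no tissue class lay between -0.19 and 0.97, with a median of 0.10. The ranges of the muscle and ubiquitous forms cannot come to overlap under a scaling that moves all genes of an array by the same amount. Hk2 nevertheless passed above 0 with centring on hybridisation controls, and Pfkl and Pfkfb3 passed below 0 with centring on housekeeping genes. The classes follow the usage of each form in the heart: Ldha is also the form of fast skeletal muscle, and Pfkl is named for liver. Slc16a3, the highest of the 30 genes, is likewise a form of fast skeletal muscle and was not classed as muscle here. Aldoa (-0.07), the aldolase of muscle and of most other cells, was given no class. The classes were chosen with earlier results of these data known. Neither the split by class nor the pairs below are therefore independent support.

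**Figure D1:**
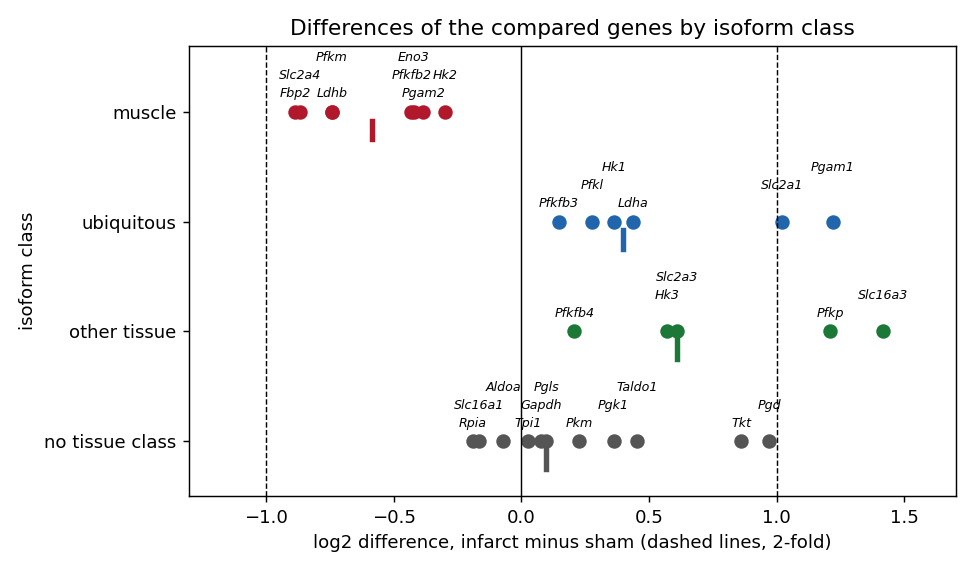
Log2 difference (infarct minus sham, horizontal axis) of each of the 30 genes compared, 1 point a gene, by isoform class on the vertical axis, with a short bar at the median of a class and dashed lines at a 2-fold difference. The 8 muscle forms lie from -0.89 to -0.30 and the 6 ubiquitous forms from 0.15 to 1.22, without overlap.

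Glucose uptake showed the widest separation between isoforms. Slc2a4 encodes GLUT4, the insulin-responsive transporter of muscle and fat, and its log2 level was 11.83 in sham hearts and 10.96 in infarcted hearts, a difference of -0.86 (1.82-fold lower). Its second probe set gave -0.77, and 2.12% of all genes compared had a lower difference than Slc2a4. Slc2a1 encodes GLUT1, the transporter of most cells for basal uptake, and its level was 9.28 in sham hearts and 10.30 in infarcted hearts, 2.03-fold higher. Its 3 probe sets all gave a higher value in infarcted hearts, with differences of 0.89 to 1.14. Slc2a3 encodes GLUT3, the high-affinity transporter of neurons and leukocytes, and had a level of 6.32 in sham hearts, below the median of that array, and 6.93 in infarcted hearts. Of its 4 probe sets, 1 was bright, with a difference of 0.61, and the dim ones lay between -0.29 and 0.19.

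Hexokinase traps glucose in the cell as glucose 6-phosphate. Hk2, the insulin-regulated form of muscle, had a level of 12.20 in sham hearts and 11.90 in infarcted hearts, a difference of -0.30 from 1 probe set. Hk1, the widely expressed form, had 10.18 in sham hearts and 10.54 in infarcted hearts, and its 2 probe sets gave 0.36 and 0.52. A further probe set whose annotation names Hk1 with other genes gave 0.30. Hk3, a form of myeloid cells, had 7.61 in sham hearts and 8.18 in infarcted hearts, with differences of 0.57 and 0.25 in its 2 probe sets. Hk1 and Hk3 were thus above sham in every probe set of their own, and Hk2 was below sham. Gpi1, the isomerase that follows hexokinase, had no probe set with its symbol alone and was not analysed here.

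Phosphofructokinase, the committing step of glycolysis, is assembled from subunits of separate genes, and these differed in direction. The muscle subunit Pfkm had a level of 13.07 in sham hearts and 12.33 in infarcted hearts, a difference of -0.74 (1.67-fold lower). The platelet subunit Pfkp had 9.23 in sham hearts and 10.44 in infarcted hearts (2.31-fold higher), and its 3 probe sets gave 1.05 to 1.27. The probe set at 1.05 was bright on the infarct array alone. The liver subunit Pfkl had 10.13 and 10.41, a difference of 0.28. A second Pfkl probe set also gave 0.28, whereas the dimmest gave -0.02, so that the probe sets of Pfkl were less uniform than those of Pfkp.

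The PFKFB enzymes make and degrade fructose 2,6-bisphosphate, the activator of phosphofructokinase. Pfkfb2, the heart form, had a level of 8.53 in sham hearts and 8.10 in infarcted hearts, a difference of -0.43. Its other bright probe sets disagreed, with -0.59 and 0.04. The probe set at -0.59 was bright on the sham array alone and so could enter only with a lower value in infarcted hearts. Pfkfb3, the inducible form, had 6.80 and 6.95, a difference of 0.15, and Pfkfb4, known from testis and tumour cells, had 7.34 and 7.55, a difference of 0.21. A second, dim probe set of Pfkfb3 gave -0.10. Pfkfb3 and Pfkfb4 both lay within the probe-set SD of 0.23 and fell below 0 with centring on housekeeping genes. Pfkfb1, the liver form, was not analysed here. Fbp2, the muscle fructose-bisphosphatase that runs the opposite reaction to phosphofructokinase, had 9.40 in sham hearts and 8.52 in infarcted hearts. Its difference of -0.89 (1.85-fold lower) was the lowest among the 30 genes compared, and 2.00% of all genes compared had a lower one.

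In the middle of the pathway Aldoa, Tpi1 and Gapdh differed little between the pools by their brightest probe sets, whereas Pgk1 was higher in infarcted hearts. Aldoa, the aldolase of muscle and of most other cells, had 13.71 in sham hearts and 13.64 in infarcted hearts, and its 5 probe sets gave -0.33 to -0.07. The neuronal aldolase Aldoc had levels of 5.10 and 5.25 and was bright on neither array, so it was not compared. Tpi1, triosephosphate isomerase, had 12.82 and 12.84, with differences of -0.06 to 0.05 over its 3 probe sets. Gapdh, the dehydrogenase of glyceraldehyde 3-phosphate, had 14.31 in sham hearts and 14.39 in infarcted hearts. The 3 probe sets that name Gapdh alone are those of the array's own controls, with differences of 0.05 to 0.08, and 3 more that also name other genes gave -0.01 to 0.09. These levels lie close to the top of the scale. Pgk1, phosphoglycerate kinase, had 12.64 and 13.00, and its 3 probe sets all gave 0.36 to 0.41. Every probe set of Tpi1 and Gapdh lay within the probe-set SD of 0.23 and every one of Pgk1 beyond it, whereas Aldoa was within it by its brightest probe set and beyond it in 3 of its 5.

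Phosphoglycerate mutase again separated by isoform. Pgam2, the muscle subunit, had a level of 12.60 in sham hearts and 12.21 in infarcted hearts, a difference of -0.38. Pgam1, the form of most other tissues, had 9.37 in sham hearts and 10.59 in infarcted hearts, 2.33-fold higher, and 97.8% of all genes compared had a lower difference. Each mutase was read from 1 probe set. Eno3, the muscle enolase, had 13.66 in sham hearts and 13.24 in infarcted hearts, a difference of -0.42. Eno1, its ubiquitous counterpart, was not analysed here, so this step has no comparison of isoforms. The neuronal enolase Eno2 had 4.58 and 4.92 and was bright on neither array. Pkm, pyruvate kinase, whose splice forms a single probe set does not separate, had 12.52 and 12.75, a difference of 0.23.

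At the end of the pathway the lactate dehydrogenase subunits differed in direction, and the lactate exporter of glycolytic cells had the largest difference of all 30 genes compared. Ldhb, the heart subunit, had a level of 13.31 in sham hearts and 12.57 in infarcted hearts, and its 4 probe sets gave -0.80 to -0.74 (1.67-fold lower by the brightest). Ldha, the subunit that predominates in glycolytic tissue, had 12.65 in sham hearts and 13.09 in infarcted hearts, a difference of 0.44 (1.35-fold higher). Slc16a3 encodes MCT4, a monocarboxylate transporter that exports lactate, and had 6.38 in sham hearts, just above the median of the array, and 7.80 in infarcted hearts. Its difference of 1.41 (2.67-fold higher) came from 1 probe set, and 98.5% of all genes compared had a lower one. Slc16a1 encodes MCT1, the carrier through which the heart takes up lactate, and had 12.15 and 11.99, with differences of -0.17 and 0.07 in its 2 probe sets. MCT1 thus lay within the probe-set SD while MCT4 was the furthest from sham.

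**Figure D2:**
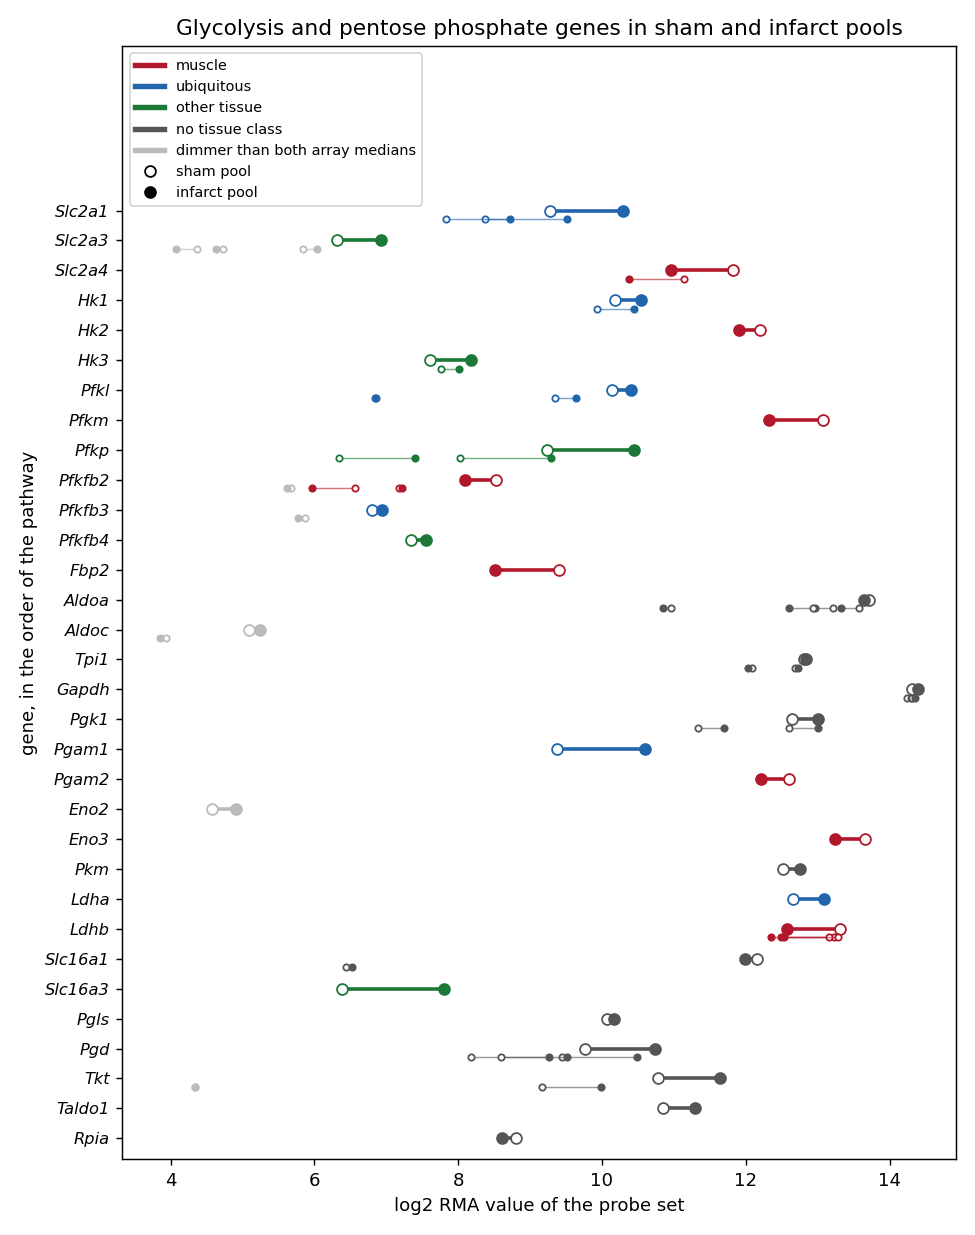
Log2 level (horizontal axis) of the 32 genes with a probe set, in the order of the pathway, with an open circle for the sham pool and a filled circle for the infarct pool (1 array each), coloured by isoform class, with smaller symbols for the other probe sets of a gene and grey for those bright on neither array. Muscle forms such as Slc2a4 (11.83 to 10.96) have the filled circle on the left, and forms such as Slc16a3 (6.38 to 7.80) and Pgam1 (9.37 to 10.59) have it on the right.

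The muscle and ubiquitous form of the same step were then set against each other, as differences on the log2 scale and without comparing the levels of different genes. Both forms were compared at 6 steps, and the muscle form had the lower difference at all 6. The gap (muscle minus ubiquitous difference) was -1.89 for glucose uptake, a 3.70-fold shift of Slc2a4 relative to Slc2a1. It was -1.60 for phosphoglycerate mutase, -1.18 for lactate dehydrogenase and -1.02 for phosphofructokinase. It was smaller for hexokinase (-0.66) and for the enzymes of fructose 2,6-bisphosphate (-0.58). A gap does not change when all genes of an array are moved by the same amount, so it holds whichever centring is used. At all 6 steps every bright probe set of the muscle form lay below every bright probe set of the ubiquitous form, by the least for fructose 2,6-bisphosphate, where the highest Pfkfb2 value was 0.04 and the Pfkfb3 value 0.15, and where the dim Pfkfb3 probe set (-0.10) lay below that Pfkfb2 value. The muscle form was below 0 and the ubiquitous form above 0 at all 6 steps with the deposited values, array medians, quantile scaling, loess or poly-A controls, but at 5 with hybridisation controls and at 4 with housekeeping genes.

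**Figure D3:**
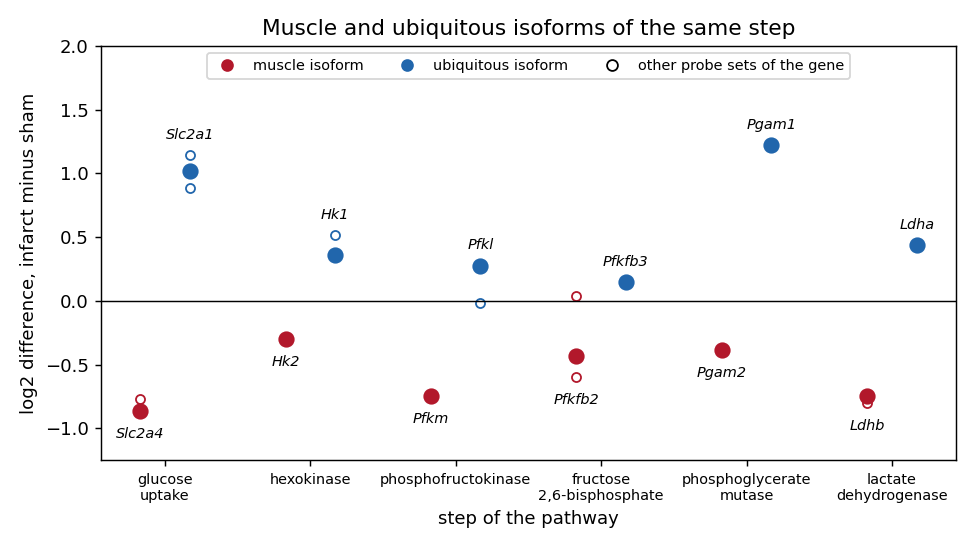
Log2 difference (infarct minus sham, vertical axis) of the muscle and the ubiquitous form at 6 steps, filled circles for the brightest probe set of a gene and open circles for its other bright probe sets. Muscle forms lie below their ubiquitous partner at all 6 steps, from a gap of -0.58 for fructose 2,6-bisphosphate to -1.89 for glucose uptake.

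The genes of the pentose phosphate branch were mostly higher in infarcted hearts, with a median difference of 0.45 over the 5 genes compared. Pgd, the second dehydrogenase that yields NADPH, had 9.76 in sham hearts and 10.73 in infarcted hearts (1.96-fold higher), and its 4 probe sets gave 0.92 to 1.09. Tkt, the transketolase that links the branch back to glycolysis, had 10.77 and 11.64 (1.82-fold higher), with 0.82 in its other bright probe set. Taldo1, transaldolase, had 10.84 and 11.30, a difference of 0.45. These genes lay beyond the probe-set SD in the same direction, although 6331 of all 11962 genes compared also lay beyond it. They stayed above 0 under all 6 scalings. Pgls, the lactonase, had 10.07 and 10.17, a difference of 0.10, and Rpia, the isomerase of ribose 5-phosphate, had 8.80 and 8.61, a difference of -0.19. Both lay within the probe-set SD, and each changed sign under 1 of the control centrings, Pgls with housekeeping genes and Rpia with hybridisation controls. G6pdx, the entry enzyme, had no probe set with its symbol alone and was not analysed here.

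Promoter sequence was matched for 28 of the 30 genes compared (all but Slc2a3 and Slc2a4), as the 250 bases before and 50 bases after each RefSeq start site on GRCm38.p6. Of 9632 compared genes with a promoter in the same source, 29.0% held the letters ACGTG, a form of the core bound by hypoxia-inducible factors. Counted likewise on either strand, they occurred in 16 of the 28 genes (57.1%). They occurred in 4 of 7 muscle forms, 5 of 6 ubiquitous forms, 2 of 4 forms of other tissues and 5 of 11 genes without a tissue class. A gene was counted where any of its annotated starts matched, so genes with several starts had more chances of a match. The number of starts of a gene was not taken into account in these shares. CACGTG, the palindromic E-box that contains ACGTG on both strands, occurred in 6 of the 28 genes (21.4%), against 11.7% of compared genes. GCGTG was found in 19 of the 28 (67.9%), against 55.1% of compared genes. The array measured RNA and not binding, a match is no evidence of a bound site, and a window without a match says nothing about the factor. The stretches of 150 bases just upstream of the start site are given here for both mutases and both lactate dehydrogenases, which differed in direction, and for Slc16a3, Pfkp, Slc2a1 and Fbp2, which with Pgam1 are the genes at least 2-fold higher and the gene with the lowest difference. They are written 5′ to 3′ on the strand of the gene, with ACGTG and its reverse complement in capitals; matches that overlap as an E-box run together as 6 capitals.
Slc2a1 (chr4:119108595-119108744, plus strand): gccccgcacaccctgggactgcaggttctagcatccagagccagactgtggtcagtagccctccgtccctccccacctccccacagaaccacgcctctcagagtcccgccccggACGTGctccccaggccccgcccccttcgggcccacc
Slc16a3 (chr11:120948917-120949066, plus strand): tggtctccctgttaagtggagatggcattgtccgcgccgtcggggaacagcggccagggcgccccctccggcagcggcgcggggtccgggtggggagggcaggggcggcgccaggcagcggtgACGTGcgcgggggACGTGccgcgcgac
Pfkp (chr13:6648772-6648921, minus strand): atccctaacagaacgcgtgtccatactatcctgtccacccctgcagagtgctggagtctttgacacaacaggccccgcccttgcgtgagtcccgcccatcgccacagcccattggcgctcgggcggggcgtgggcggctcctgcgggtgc
Pgam1 (chr19:41911721-41911870, plus strand): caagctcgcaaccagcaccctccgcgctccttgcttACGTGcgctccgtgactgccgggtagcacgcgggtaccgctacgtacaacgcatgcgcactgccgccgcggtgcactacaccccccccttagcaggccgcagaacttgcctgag
Pgam2 (chr11:5803797-5803946, minus strand): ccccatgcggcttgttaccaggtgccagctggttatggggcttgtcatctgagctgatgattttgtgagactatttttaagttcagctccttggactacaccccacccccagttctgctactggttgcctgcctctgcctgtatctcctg
Ldha (chr7:46845654-46845803, plus strand): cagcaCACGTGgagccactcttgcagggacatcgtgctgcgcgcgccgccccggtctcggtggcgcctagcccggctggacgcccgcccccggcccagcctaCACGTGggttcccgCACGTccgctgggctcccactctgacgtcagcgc
Ldhb (chr6:142507958-142508107, minus strand): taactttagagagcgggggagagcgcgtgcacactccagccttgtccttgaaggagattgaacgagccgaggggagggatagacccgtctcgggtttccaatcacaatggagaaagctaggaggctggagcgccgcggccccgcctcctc
Fbp2 (chr13:62858401-62858550, minus strand): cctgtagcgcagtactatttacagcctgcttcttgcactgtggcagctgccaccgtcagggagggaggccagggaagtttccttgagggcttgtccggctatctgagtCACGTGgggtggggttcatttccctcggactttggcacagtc
ACGTG lay 36 bases before the start of Slc2a1, 27 and 14 bases before that of Slc16a3 and 114 bases before that of Pgam1. The first start of Ldha has 3 clusters of matches, the nearest 34 bases upstream, while the window of a second annotated start holds none. Fbp2, which was 1.85-fold lower in infarcted hearts, has an E-box 42 bases upstream, so the letters were present in genes of both directions. The windows of Pfkp, Pgam2 and Ldhb hold no ACGTG, and neither do the promoters of Pgd and Tkt. These letters were thus also absent from genes of both directions. GCGTG occurred 4 times in the promoter of Pfkp and also in those of Ldhb, Tkt and a start of Pgd. It did not occur in the promoter of Pgam2.

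Genes next to the pathway were read from 4 further lists, of which 58 genes were compared out of 73 listed. Of these, 3 were at least 2-fold higher and 4 at least 2-fold lower, beside the 3.73% and 1.26% of all genes compared, and the median was -0.14. Pyruvate entry into mitochondria was the most one-sided, with 12 of 13 genes below 0 and a median of -0.41. Pdk2, a kinase that switches off pyruvate dehydrogenase, had 11.22 in sham hearts and 10.15 in infarcted hearts (2.11-fold lower). Pdp2, a phosphatase that switches the enzyme on again, had 7.75 and 6.71 (2.06-fold lower), and Pdk4, the kinase induced by fasting, had 12.06 and 11.51. Only Pdk3 lay above 0 in that list, with 7.26 and 7.99. Kinases and phosphatases with opposite action on the enzyme were thus lower in the same pool. With centring on hybridisation controls the median of the list was -0.09 and 10 genes lay below 0.

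Glycogen genes were mixed, with a median of -0.16 over 16 genes, 2 of them at least 2-fold higher and 1 at least 2-fold lower. Stbd1, a glycogen-binding protein, had 7.36 in sham hearts and 8.45 in infarcted hearts, and Pgm2, a phosphoglucomutase gene, had 7.16 and 8.19. Phkg1, the catalytic subunit of phosphorylase kinase in muscle, had 7.54 and 6.32 (2.33-fold lower). It was bright on the sham array alone and so could enter only with a lower value in infarcted hearts. The further isoenzymes of the steps above had a median of -0.10 over 14 genes, from Ldhd, the D-lactate dehydrogenase of mitochondria (8.70 in sham hearts, 7.64 in infarcted hearts), to Adpgk, the ADP-dependent glucokinase (6.62 and 7.26). The side branches of sugar phosphates had a median of 0.09 over 15 genes, the highest being Psat1, which makes phosphoserine for serine synthesis, with 6.81 and 8.22 (2.65-fold higher).

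**Figure D4:**
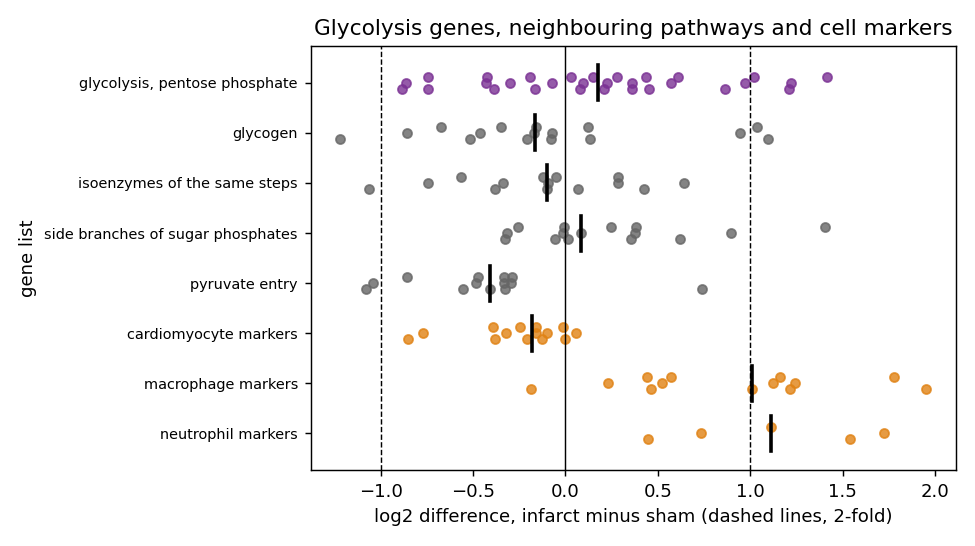
Log2 difference (infarct minus sham, horizontal axis) of single genes, 1 point each, in the glycolysis and pentose phosphate genes, in 4 neighbouring lists and in markers of cardiomyocytes, macrophages and neutrophils, with a bar at the median of each list and dashed lines at a 2-fold difference. Pyruvate entry has a median of -0.41 with 12 of 13 genes below 0, the glycolysis and pentose phosphate genes have a median of 0.18, and the macrophage markers one of 1.01.

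Markers of the cell types in the tissue also differed between the pools. In bulk heart RNA, fewer cells of a type and less RNA per cell cannot be told apart. Of the 14 cardiomyocyte markers, 13 lay below 0, with a median of -0.18 (-0.35 when all probe sets of a gene were averaged), from Tcap at -0.85 to Actc1 at 0.06, and their mean level was 14.25 in sham hearts and 13.99 in infarcted hearts, near the top of the scale. Of the 13 monocyte and macrophage markers compared, 12 lay above 0, with a median of 1.01 and mean levels of 9.64 and 10.52. The 5 neutrophil markers that were bright, of 9 on the array, had a median of 1.11 and mean levels of 7.41 and 8.52, but Cxcr2 was bright on the infarct array alone, and without the filter 6 of the 9 lay above 0 and 2 below it, with a median of 0.74. The 10 fibroblast markers had a median of 0.47, from Dcn at -0.34 to Postn at 1.28, and the 9 endothelial markers a median of 0.22. The remaining lists rest on few genes: the skeletal muscle markers had a median of 0.71 over 6, the neuronal markers 1.04 over 3 and the erythroid markers -0.03 over 2. Of the skeletal muscle markers, Tnnt3 was bright on the infarct array alone. The direction of the muscle forms was thus that of the cardiomyocyte markers, and the direction of the ubiquitous forms that of most macrophage and fibroblast markers. The latter direction was also that of 6 of the 9 endothelial markers. It was shared by 10 of 11 housekeeping genes, with a median of 0.36. The part of cell composition in the isoform differences was not tested. With the mean of the cardiomyocyte markers set to 0, a centring chosen after seeing the data, the muscle forms had a median of -0.32 and 8 of 8 lay below 0 where each marker was read from its brightest probe set. With the mean of each marker's probe sets the median was -0.24, 7 of 8 lay below 0 and Hk2 lay at 0.04. The choice of probe sets matters here, since in 7 of the 8 markers with several probe sets the brightest had the highest difference. The markers lie near the top of the scale, where differences can be compressed. The shift applied by this centring may therefore be too small.

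**Figure D5:**
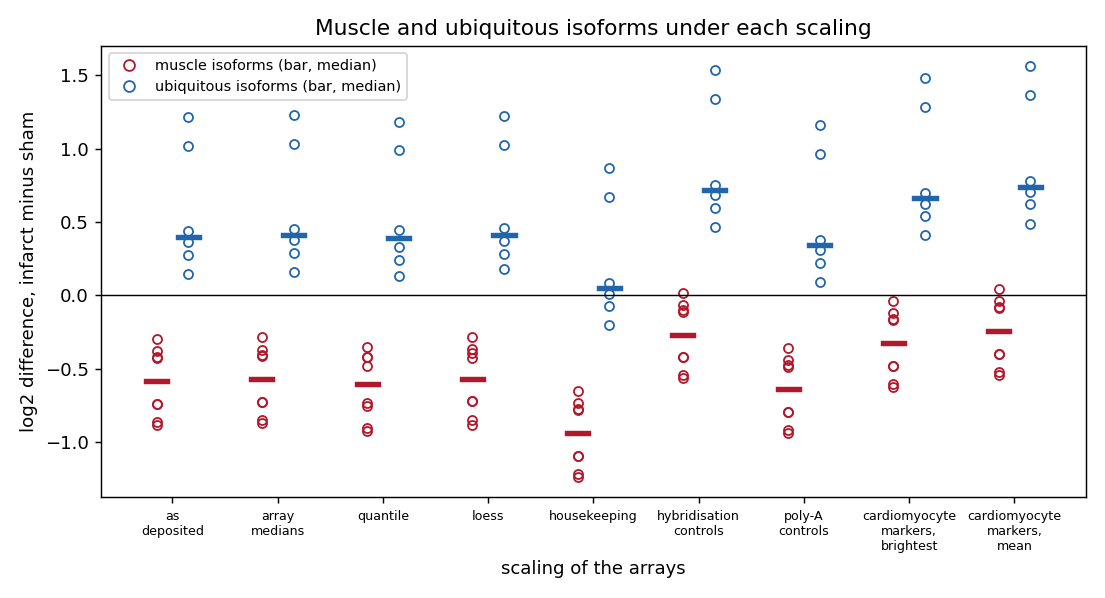
Log2 difference (infarct minus sham, vertical axis) of the muscle and ubiquitous forms, 1 circle a gene with a bar at the median, as deposited, under each of 6 scalings and with centring on cardiomyocyte markers read from their brightest probe sets or the mean of them all. The medians of the muscle forms range from -0.94 with housekeeping genes to -0.24 with the mean of the cardiomyocyte probe sets, and those of the ubiquitous forms from 0.047 to 0.74.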

How the data were processed

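The authors extracted total RNA from hearts frozen in liquid nitrogen, mixed material of 3 mice in each group, and hybridised biotin-labelled cRNA to Affymetrix GeneChip expression arrays for mouse. The deposited values are log2 intensities summarised per probe set by RMA per the labels, and the version of that software is not given in the sources used here. Probe sets were named through GEO's platform annotation: 34958 of 45101 carry 1 gene symbol, 932 carry several and 9211 carry none, and the last groups were left out. Each gene was represented by its brightest probe set, averaged over both arrays, and was compared where that probe set reached the median of at least 1 array. Differences are infarct minus sham. With 1 array a group no test was run, and precision is limited by there being 2 arrays. The genes named are all those of the set, and from other lists those at least 2-fold apart (the highest and lowest where there were none), with Pdk3, Pdk4, Adpgk, Pygm, Pygb, Pygl and the cell type markers at the ends of their lists named after their values were seen. Members, isoform classes and gene lists were chosen with earlier results of these data known. The alternatives were 6 scalings (array medians, quantile, loess with a span of 0.4, 11 housekeeping genes, 18 hybridisation and 24 poly-A control probe sets), the mean of probe sets, leaving out cross-hybridising probe sets, no filter, a filter at the 75th percentile, a threshold of 1.4 on the log2 scale and means for medians. In simulated data with shifts above the 2-fold threshold and noise below the probe-set SD, the calculation recovered 100% of 200 shifted genes. This checks the calculation and not the reliability of a difference. Python 3.11.15, numpy 2.4.6, pandas 2.3.3, statsmodels 0.14.6 and matplotlib 3.10.9 were used.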

Additional observations from a re-analysis of the deposited data

How the results depend on the processing

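With 1 array a group, neither the animals' spread nor the arrays' spread is known, and dim or nearly saturated probe sets compress differences. The muscle form lay below its ubiquitous partner at all 6 steps under every scaling. Only quantile scaling and loess could have changed that order, because the others move every difference by the same amount. Centring on housekeeping genes left 1 of the 30 genes at least 2-fold higher and 4 at least 2-fold lower. With the same centring 203 of all 11962 genes compared were that much higher and 600 that much lower, and their median was -0.35. The median of the 30 genes turned to -0.18. Those of muscle forms, ubiquitous forms and the pentose phosphate branch were -0.94, 0.047 and 0.10. Hybridisation controls gave 0.50, -0.27, 0.72 and 0.77 for the same medians, and cardiomyocyte markers, chosen after seeing the data, 0.44, -0.32, 0.66 and 0.72 by their brightest probe sets and 0.52, -0.24, 0.74 and 0.80 by the mean of their probe sets. A threshold of 1.4 left 1 of the 30 genes higher, and the share of all genes at that threshold was not counted. With poly-A controls 3 of the 30 genes were at least 2-fold higher, beside 391 of all genes compared. The count was also 3 with quantile scaling, beside 421, and was 6 with hybridisation controls, beside 962. Slc2a1 lay just below 2-fold with quantile scaling (0.99) and poly-A controls (0.96). The mean of probe sets gave 5 of 29 genes, without a count over all genes. Signs turned with housekeeping genes for Pfkl (-0.076), Pfkfb3 (-0.21), Pfkfb4 (-0.15), Tpi1 (-0.33), Gapdh (-0.27), Pkm (-0.13) and Pgls (-0.26). With hybridisation controls they turned for Hk2 (0.018), Aldoa (0.25), Slc16a1 (0.15) and Rpia (0.13), and with cardiomyocyte markers for Aldoa (0.19), Slc16a1 (0.096) and Rpia (0.071) by the brightest probe sets, or for Hk2 (0.042), Aldoa (0.27), Slc16a1 (0.18) and Rpia (0.15) by the mean. Tpi1 also turned with quantile scaling (-0.024) and poly-A controls (-0.029). The centrings add 1 constant to every difference, whereas for quantile scaling the cause of the turn was not tested. No paired analysis was possible because each group had 1 array.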

Other observations

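Among the glycogen phosphorylases, chosen after their values were seen, the muscle form had the lowest difference. Of the other forms, the liver form lay above 0 and the brain form below it. Pygm, the muscle phosphorylase, had a log2 level of 12.40 in sham hearts and 11.54 in infarcted hearts, a difference of -0.86. Pygb, the brain form that the heart also expresses, had 12.41 and 11.95, a difference of -0.46. Pygl, the liver form, had 7.30 and 8.24, a difference of 0.95. Each was read from 1 probe set, and no test was possible.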
